A study of Mus musculus with 24 samples.

Results

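Afp, H19, Gpc3, Golm1, Tff3, Abcc4 and Scd2 are genes that the fetal liver or liver tumours express more than the healthy adult liver does. They were chosen by name, and each of these 7 genes was found in the count and FPKM tables, which list 55421 genes. RNA was measured in hepatocytes of 24 C57BL/6J mice, each started on vehicle or agent at 4 months of age. Animals given the eudragit vehicle were kept on normal diet (ND+veh, n = 8) or moved at 18 months of age, for 9 weeks, to a high-fat diet in which 60% of calories came from fat (HFD+veh, n = 7). The third group ate the same high-fat diet with encapsulated rapamycin at 42 ppm, begun at 4 months (HFD+eRapa, n = 9). At collection no group in these tables was on rapamycin with the normal diet, so the agent can be compared with vehicle only within the high-fat diet. The hepatocytes came from a perfused and digested liver and a Percoll spin, with no sorting of the cells. All libraries share batch label 1, and p-values describe the spread among these animals.

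Several of these genes are shut off in the liver around birth and can return in tumours. Afp encodes alpha-fetoprotein, the main serum protein of the fetus and a relative of albumin, and H19 is an imprinted long non-coding RNA. The repressors Zhx2 and Zbtb20 help to silence such genes after birth, while the FoxA factors and Hnf4a maintain adult hepatocyte expression. Gpc3 encodes a cell-surface proteoglycan and Golm1 a Golgi membrane protein, and both are used as markers of hepatocellular carcinoma. Tff3 is a secreted trefoil peptide of mucous and biliary epithelium. Abcc4 encodes an efflux pump of the sinusoidal membrane that exports bile acids and cyclic nucleotides. Scd2 encodes a stearoyl-CoA desaturase that makes monounsaturated fatty acids, a task done in the adult liver mainly by Scd1. Rapamycin inhibits mTOR, the kinase that couples nutrients to growth.

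On mm10 (GRCm38), Afp lies at chr5:90490737-90508907 on the plus strand, beside its relative Alb, and Scd2 at chr19:44293674-44306864, also on the plus strand. On the minus strand are H19 at chr7:142575529-142578143, Golm1 at chr13:59634626-59675811, Tff3 at chr17:31125306-31129646, Abcc4 at chr14:118482692-118706219 and Gpc3 at chrX:52272426-52613950. H19 is annotated as a long intergenic RNA and hosts Mir675, and the other 6 are protein-coding genes. Promoter sequence is shown for Afp, which differed between HFD+eRapa and each of the other groups, and for Golm1 and Abcc4, which were high in the same HFD+veh animals. The 250 bases before the RefSeq transcription start were taken on GRCm38.p6, where 4 of the 7 genes matched, the fourth being Gpc3. These starts can differ from the gene positions above. The Afp window ends at 90490713, short of the gene start at 90490737. The Golm1 window begins at 59675785, inside its gene, which reaches 59675811. Capitals mark the motif GTTAAT, known from promoters of liver genes, the TATA box motif TATAAA, the CCAAT box motif, and the antioxidant response element core TGACNNNGC, searched on both strands. A motif on the opposite strand appears as its reverse complement.
Afp, chr5:90490464-90490713, plus strand: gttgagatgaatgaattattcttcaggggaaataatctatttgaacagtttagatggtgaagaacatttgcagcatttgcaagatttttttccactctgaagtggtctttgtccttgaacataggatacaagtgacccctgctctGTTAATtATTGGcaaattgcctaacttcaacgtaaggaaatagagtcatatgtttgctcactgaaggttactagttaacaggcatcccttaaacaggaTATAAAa
Golm1, chr13:59675785-59676034, minus strand: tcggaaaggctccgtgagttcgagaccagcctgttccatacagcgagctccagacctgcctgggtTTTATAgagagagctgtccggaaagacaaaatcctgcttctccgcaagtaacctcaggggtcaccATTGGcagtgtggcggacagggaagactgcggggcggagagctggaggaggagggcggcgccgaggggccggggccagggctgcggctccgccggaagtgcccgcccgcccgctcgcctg
Abcc4, chr14:118706220-118706469, minus strand: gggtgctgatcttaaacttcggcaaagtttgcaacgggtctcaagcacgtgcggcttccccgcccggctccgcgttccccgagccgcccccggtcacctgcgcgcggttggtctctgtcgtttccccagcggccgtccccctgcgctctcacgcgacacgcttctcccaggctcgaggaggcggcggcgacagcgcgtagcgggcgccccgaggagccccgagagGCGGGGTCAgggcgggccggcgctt
The Afp promoter held GTTAAT at -105 to -100 from the RefSeq start, an adjoining CCAAT on the opposite strand and TATAAA at -7 to -2. Among 32817 promoters of this length, GTTAAT occurred in 6.44%, TATAAA in 12.4%, CCAAT in 33.8% and TGACNNNGC in 10.2%. The bases of the Afp window were 36.0% G or C, against 65.6% for Golm1 and 72.0% for this promoter of Abcc4, with a median of 52.4% over all promoters. These matches are a description of the letters and not evidence of a bound factor.

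The libraries held 17.7 to 25.9 M counts (M, 1000000), and the hepatocyte label was checked against 8 defining markers. All 8 were present in every group, with a summed level, mostly Alb, of 45389 to 154700 CPM (counts per M after TMM scaling). Markers of other liver cells were present too and varied widely. Macrophage markers summed to 32.4 to 977 CPM in ND+veh (median 181), 117 to 2608 CPM in HFD+veh (median 1523) and 9.85 to 709 CPM in HFD+eRapa (median 126). Cholangiocyte markers summed to 15.8 to 35.2 CPM in ND+veh (median 18.1), 24.4 to 373 CPM in HFD+veh (median 116) and 27.3 to 70.4 CPM in HFD+eRapa (median 34.8). Spp1 alone was 348 CPM of the highest HFD+veh sum. In such bulk samples, fewer cells of a type and less RNA per cell cannot be told apart. Of these libraries, HFD+veh replicate 6 held the highest level of 25.1% of all genes tested, and ND+veh replicate 4 had the largest scaling factor, 1.30.

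All 7 genes were scarce. In FPKM (fragments scaled by gene length and by mapped fragments, computed by the authors), the median in ND+veh fell from Scd2 (1.89) through Afp (1.24), Tff3 (1.10), Golm1 (0.505), Abcc4 (0.415) and H19 (0.325) to Gpc3 (0.0237). In HFD+veh the order of median FPKM was Tff3 (3.97), Scd2 (3.66), H19 (2.99), Golm1 (1.67), Afp (1.43), Abcc4 (0.936) and Gpc3 (0.0865). In HFD+eRapa it was Tff3 (2.31), Afp (0.719), Scd2 (0.582), Abcc4 (0.304), Golm1 (0.293), H19 (0.219) and Gpc3 (0.0252). In each group the ranges of neighbours in this order overlapped. Gpc3 lay in every animal below all values of Scd2 in ND+veh, of Tff3, Scd2, H19, Golm1 and Afp in HFD+veh, and of Tff3, Afp and Scd2 in HFD+eRapa, and every other pair of genes overlapped. At least 10 counts were present in all 24 libraries for Afp and Scd2, in 23 for Abcc4, in 22 for Golm1, in 13 for H19 and Tff3, and in 2 for Gpc3.

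**Figure D1:**
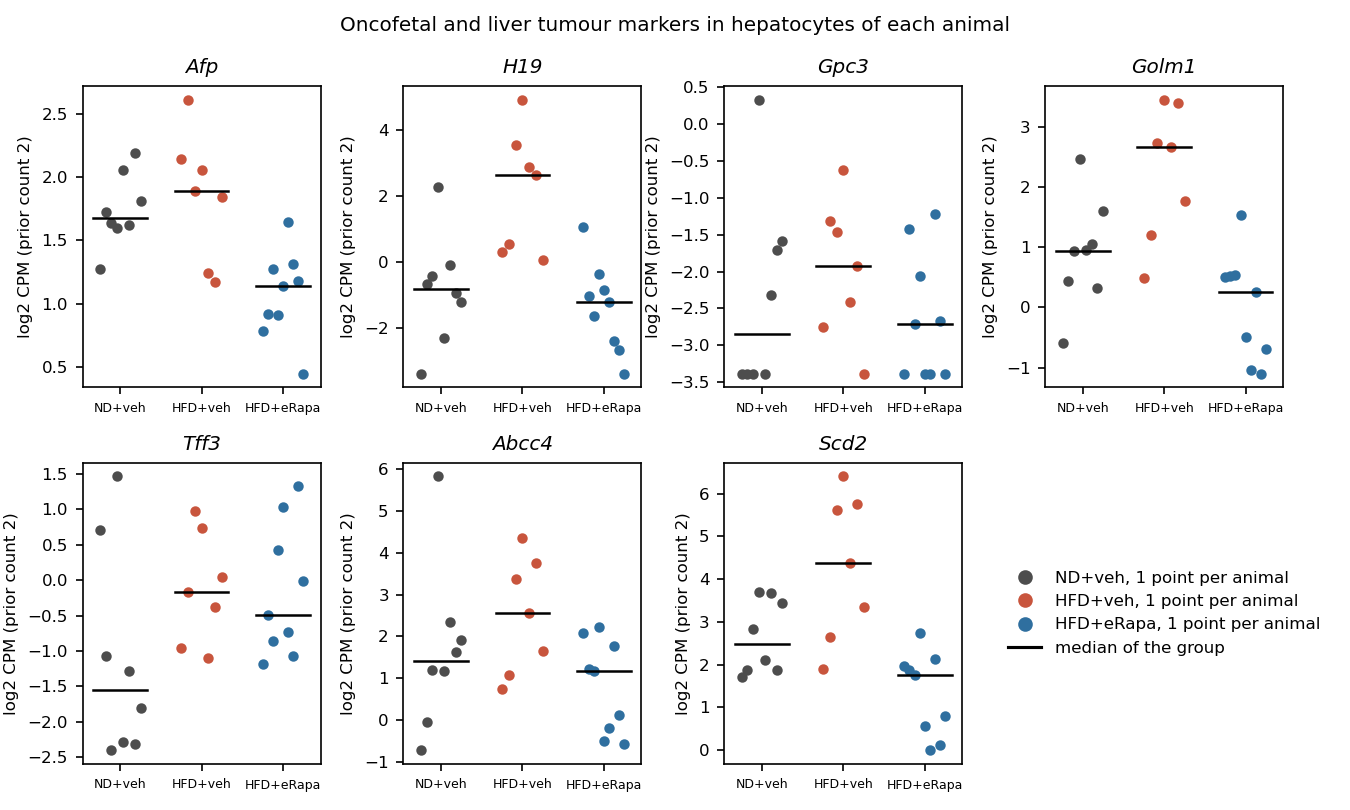
Expression of the 7 genes in each animal, with log2 CPM (prior count 2) on the vertical axis, groups on the horizontal axis, 1 point per animal and the group median as a line. H19, Golm1, Abcc4 and Scd2 split HFD+veh into high and low animals, Afp is low in HFD+eRapa, and 1 ND+veh animal lies far above its group for Abcc4 and Gpc3.

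Between HFD+veh and ND+veh, the question was whether the high-fat diet raised these genes in old hepatocytes. Scd2, H19 and Golm1 were higher on the high-fat diet, while Afp, Tff3 and Abcc4 did not pass the test. Those 3 of 6 tested genes compare with 25.9% of all genes tested that were called in either direction (adjusted p under 0.05 in edgeR) with 16% higher and 9.86% lower. Without HFD+veh replicate 6 the genes called were 988 higher and 1118 lower, in place of 2218 and 1366. The 6 genes had a median of 0.96 on the log2 scale, against 0.05 over all 13847 genes tested, and Gpc3 missed the low-count filter. H19 passed that filter mostly through HFD+veh, so its call is a description only. The groups overlapped for every one of these genes, as they did for all but 2.44% of genes tested. The count was 4 without ND+veh replicate 4, which added Abcc4, 2 without HFD+veh replicate 6, and 1, Scd2, without HFD+veh replicate 4.

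Scd2 ranged from 3.18 to 13.0 CPM in ND+veh with a median of 5.63, and from 3.65 to 84.7 CPM in HFD+veh with a median of 20.7. Replicates 3, 4, 5 and 6 of HFD+veh lay above every ND+veh animal, and the other 3 lay within the ND+veh range. The log2 fold change was 2.17 (SE 0.572, adjusted p = 0.0104, edgeR), and the call held without any 1 library. On FPKM it was lost, with 0.84 on log2(FPKM + 1) (adjusted p = 0.106) and 0.97 on log2(FPKM + 0.1) (adjusted p = 0.172) by limma.

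H19 ran from 0 to 4.72 CPM in ND+veh, where the median was 0.478, and from 0.941 to 30.0 CPM in HFD+veh, where the median was 6.16. The same 4 animals, HFD+veh 3 to 6, exceeded every ND+veh animal, and the remaining 3 exceeded all of ND+veh except replicate 4. H19 was 3.08 higher on the log2 scale (SE 0.894, adjusted p = 0.0167). Without HFD+veh replicate 4, its highest library, the difference was 2.23 and no longer passed (adjusted p = 0.0672), and without ND+veh replicate 4 it was 4.24 (adjusted p = 0.00220). H19 had 18 to 760 counts in HFD+veh, 0 to 150 in ND+veh and 0 to 46 in HFD+eRapa. It passed the low-count filter mostly through HFD+veh, so its calls against that group are a description only.

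Golm1 spanned 0.568 to 5.45 CPM in ND+veh (median 1.83) and 1.30 to 10.8 CPM in HFD+veh (median 6.25). Again HFD+veh 3, 4, 5 and 6 were the animals above all of ND+veh. Its log2 fold change of 1.45 (SE 0.481, adjusted p = 0.0306) was close to the threshold. The call was lost on leaving out any of 8 libraries (ND+veh 1, 2, 3, 5 or 7, or HFD+veh 3, 4 or 6), with adjusted p between 0.0516 and 0.0967, without the low-count filter (1.40, adjusted p = 0.0533), and by limma on log2(FPKM + 0.1) (1.26, adjusted p = 0.0768). Golm1 shares 1297 exon bases with Naa35 on the opposite strand, which hold 28.0% of its 50-base words, and whether the counting used strand is not stated. Naa35, a subunit of an N-terminal acetyltransferase, stood at 24.6 to 39.0 CPM over all libraries and its log2 fold change was 0.06 (SE 0.0821, adjusted p = 0.597).

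By summed markers, these 4 animals were also the ones with the most RNA of other cells, though for cholangiocytes this order rested on Spp1. Macrophage markers summed to 2035, 1523, 1630 and 2608 CPM in HFD+veh 3, 4, 5 and 6, against 121, 117 and 603 CPM in HFD+veh 1, 2 and 7. Cholangiocyte markers summed to 138, 373, 116 and 301 CPM in the same 4 animals and to 42.6, 24.4 and 80.7 CPM in the other 3. Most of the sum in those 4 was Spp1, at 118, 348, 95.3 and 291 CPM. Sox9 was 8.87, 7.27, 9.30 and 5.02 CPM in them, and 11.6, 4.01 and 22.6 CPM in HFD+veh 1, 2 and 7. Epcam was 0.803, 2.49, 1.02 and 0.422 CPM in the 4, and 0.0522, 0.0441 and 0.261 CPM in the other 3. The cholangiocyte score, a mean z-score over tested markers, was 0.55, 1.08, 0.74 and -0.32 in HFD+veh 3, 4, 5 and 6. In HFD+veh 1, 2 and 7 it was 0.25, -0.49 and 0.65, so replicate 6 was not high by this score. Of the marker lists, 3 of 8 macrophage genes, 3 of 4 tested cholangiocyte genes (Epcam, Sox9, Spp1), 2 of 2 tested neutrophil genes, 1 of 8 endothelial genes and 0 of 7 stellate cell genes were called higher in HFD+veh, and none of these lower. Of all genes tested, 16% were called higher and 25.9% in either direction. Of 8 hepatocyte genes, F9 was called higher and Apoa1 lower. Without ND+veh replicate 4 the macrophage count was 1 of 8 and the endothelial count 0 of 8. With a score of immune markers in the fit, the log2 fold changes were 0.39 for Scd2 (adjusted p = 0.610), 1.19 for H19 (adjusted p = 0.453) and 0.12 for Golm1 (adjusted p = 0.875). With a score of cholangiocyte markers they were 1.56 (adjusted p = 0.127), 1.62 (adjusted p = 0.191) and 0.94 (adjusted p = 0.228). Neither edgeR fit called any of the 7 genes in this comparison, with 1 of 6 at an unadjusted p under 0.05 in each, and both scores moved with the diet, so the part of other cells in these differences was not tested.

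**Figure D2:**
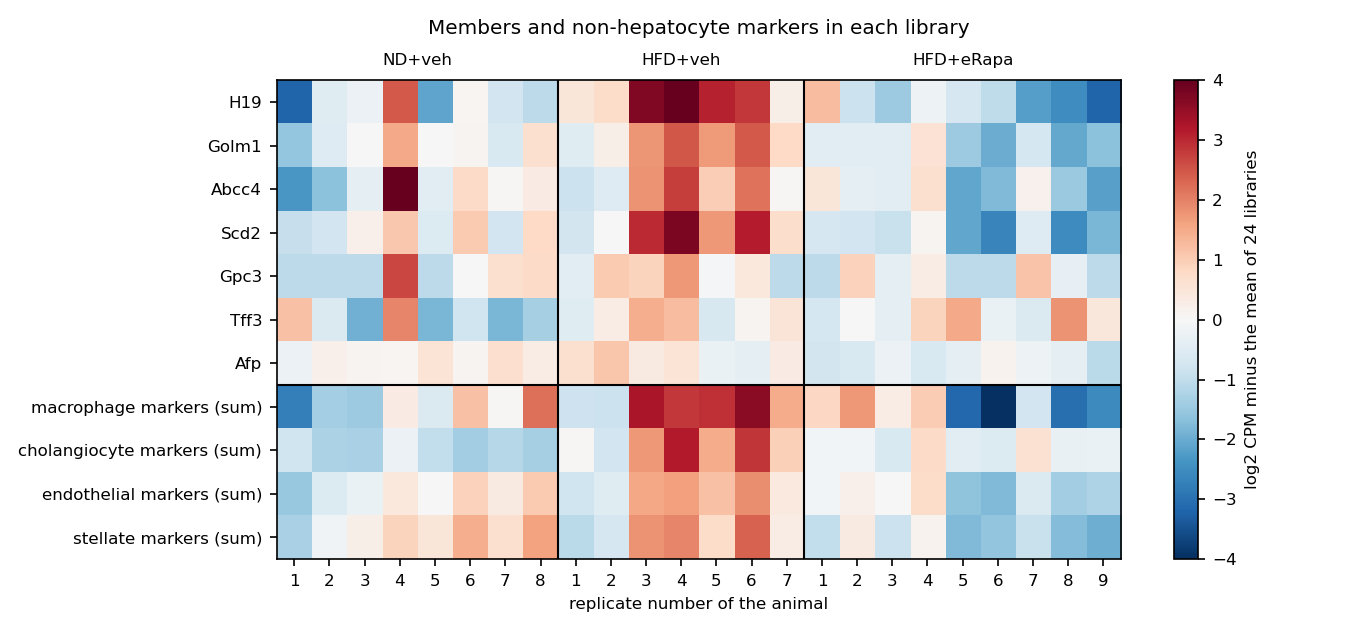
Each row is a gene or the summed CPM of a marker list, each column a library, and the colour is log2 CPM minus the mean of the 24 libraries. HFD+veh replicates 3 to 6 are high for H19, Golm1, Abcc4 and Scd2 and for the summed macrophage, cholangiocyte (mostly Spp1), endothelial and stellate markers, whereas Afp does not follow them.

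Afp stood at 2.33 to 4.49 CPM in ND+veh with a median of 3.11, and at 2.15 to 6.04 CPM in HFD+veh with a median of 3.61. HFD+veh 1 and 2, the animals with the lowest macrophage marker sums of their group, had the highest Afp. The log2 fold change was 0.17 (adjusted p = 0.586), and the order of the animals was not that seen for Scd2.

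Abcc4 ranged from 0.511 to 57.0 CPM in ND+veh with a median of 2.60, and from 1.57 to 20.4 CPM in HFD+veh with a median of 5.83. The top value belonged to ND+veh replicate 4, with 1810 counts, and the next ND+veh animal had 5.03 CPM. The log2 fold change of -0.21 (adjusted p = 0.871) turned to 1.64 (SE 0.602, adjusted p = 0.0478) without that library. Replicate 4 was the highest ND+veh animal for 6 of the 7 genes, all except Afp.

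Tff3 lay between 0.0931 and 2.68 CPM in ND+veh (median 0.252) and between 0.370 and 1.87 CPM in HFD+veh (median 0.793). Every HFD+veh animal was above the ND+veh median, yet ND+veh 4 exceeded every HFD+veh animal, and the log2 fold change was 0.46 (adjusted p = 0.617). Gpc3 had no count in 4 of 8 ND+veh and 1 of 7 HFD+veh libraries. Of its 48 counts in ND+veh, 37 came from replicate 4, and the 34 counts in HFD+veh were spread over 6 animals with at most 14 in any. A count of 0 allows up to 3 counts, or 0.0945 to 0.186 CPM over these libraries, a limit that covers counting error only. Fitted without the low-count filter, Gpc3 gave -0.14 (adjusted p = 0.987).

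Rapamycin was compared with vehicle among animals on the high-fat diet to ask whether it lowered these genes. Scd2, H19, Golm1 and Afp were lower in HFD+eRapa. The 4 of 6 tested genes compare with 32% of all genes called in either direction, 10.9% higher and 21.1% lower, and no gene of the set was called higher. Over the 6 genes the median was -2.16 on the log2 scale, against -0.04 over all genes tested. No pair of groups was fully separated, which held for all but 2.59% of genes tested. The HFD+veh animals are those of the preceding comparison, so a high value in them enters both. The call of H19 is again a description only.

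Scd2 ran from 0.901 to 6.54 CPM in HFD+eRapa with a median of 3.28. All 9 animals lay below the HFD+veh median and 6 lay below every HFD+veh animal. The log2 fold change was -3.47 (SE 0.579, adjusted p = 0.000270), the largest among called genes of the set relative to its error. With the immune marker score in the fit it was -1.60 and still called (adjusted p = 0.0138).

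H19 ranged from 0 to 1.97 CPM in HFD+eRapa, with a median of 0.338. In 8 of 9 animals it was below the lowest HFD+veh value, and HFD+eRapa replicate 1 was the exception. It fell by 4.10 on the log2 scale (SE 0.907, adjusted p = 0.00231), a value that was -3.25 (adjusted p = 0.0107) without HFD+veh 4 and -4.85 (adjusted p = 0.00126) without HFD+eRapa 1. It was not called once immune markers entered the fit (-2.16, adjusted p = 0.162). Since H19 passed the low-count filter mostly through HFD+veh, its call here is a description only.

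Golm1 lay between 0.371 and 2.79 CPM in HFD+eRapa (median 1.10), below every HFD+veh animal in 5 of 9. Its log2 fold change was -2.41 (SE 0.479, adjusted p = 0.00106), and -1.05 with the immune marker score in the fit (adjusted p = 0.0544). Naa35, on the other strand, gave 0.10 (adjusted p = 0.348).

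Afp ranged from 1.26 to 3.04 CPM in HFD+eRapa with a median of 2.10. The 9 animals were below the HFD+veh median and 5 were below the lowest HFD+veh animal, so the groups overlapped. Its log2 fold change of -0.85 (SE 0.208, adjusted p = 0.00420) was the smallest of the called genes. Summed hepatocyte markers, mostly Alb, had a median of 109630 CPM in HFD+veh and 95086 CPM in HFD+eRapa. The fall of Afp was called under each of the 11 other ways of processing and without any 1 library, and it was -1.09 (adjusted p = 0.00284) with the immune marker score in the fit.

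Abcc4 was 0.580 to 4.57 CPM in HFD+eRapa (median 2.15), with 4 of 9 animals below all of HFD+veh. Its log2 fold change of -1.91 missed the threshold (adjusted p = 0.0735), and passed it without ND+veh 4 (-1.85, SE 0.558, adjusted p = 0.0152), a library that enters this comparison only through the shared estimate of spread. It also passed with only these groups in the fit (-1.87, adjusted p = 0.0249) and with the cholangiocyte score (-1.79, adjusted p = 0.0389), whereas the immune score gave 0.088 (adjusted p = 0.963). Tff3 was 0.343 to 2.41 CPM (median 0.615) and differed by 0.03 (adjusted p = 0.975). Gpc3 had no count in 4 of 9 HFD+eRapa libraries and at most 7 in any, and the unfiltered fit gave -1.02 (adjusted p = 0.461).

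Markers of other cells moved in the same comparison. Called lower in HFD+eRapa were 6 of 8 macrophage, 8 of 8 endothelial and 7 of 7 stellate cell markers, beside 21.1% of all genes lower and 32% called in either direction. Of the cholangiocyte markers reported, Spp1 fell, and Epcam and Sox9 were not called. Among hepatocyte markers, Apoa1 and Asgr1 were called higher and 6 of 8 were not called. The neutrophil list gave 1 of 2 lower. The part of other cells in the fall of Scd2, H19 and Golm1 was not tested.

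**Figure D3:**
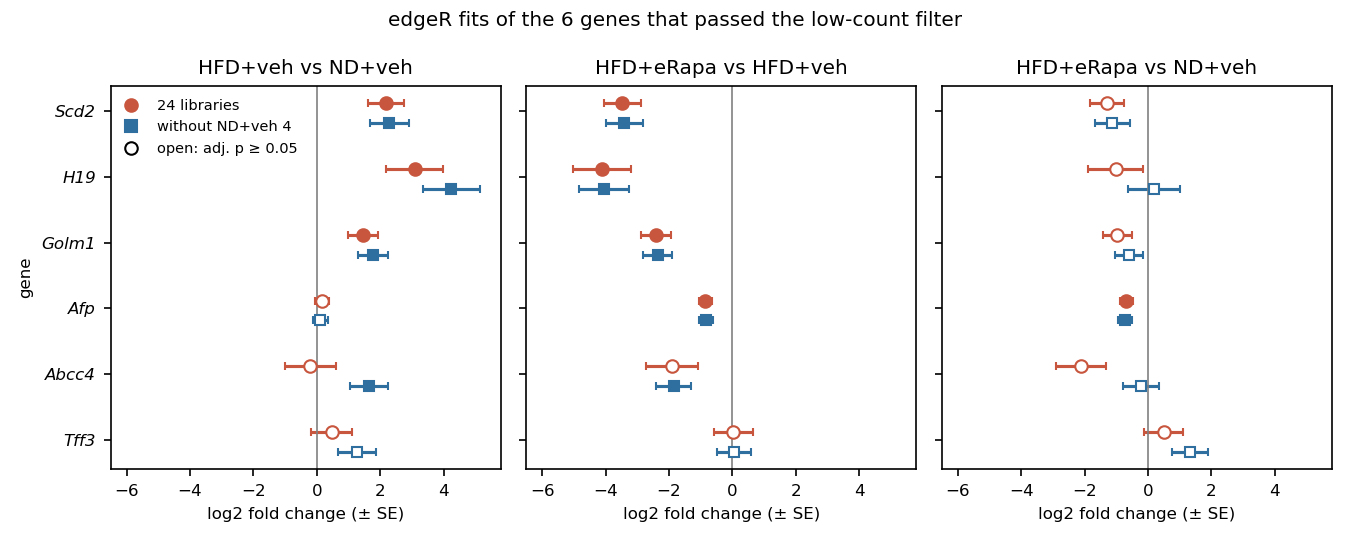
Log2 fold change (horizontal axis, bars ± SE) of the 6 genes that passed the low-count filter in the 3 comparisons, with 24 libraries (circles) and without ND+veh replicate 4 (squares), filled where the adjusted p was under 0.05. Abcc4 moves from -0.21 to 1.64 in the first panel when that library is left out, whereas the other called values stay on their side.

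Animals on high-fat diet with rapamycin were then set against those on normal diet with vehicle, which differ in both diet and agent. Afp was the only gene of the set that was called, and it was lower in HFD+eRapa. This 1 of 6 compares with 13.5% of all genes called, 6.93% higher and 6.54% lower, and the set's median was -0.99 against -0.03 over all genes tested. Afp fell by 0.69 on the log2 scale (SE 0.202, adjusted p = 0.0240). In 7 of 9 HFD+eRapa animals it was below every ND+veh animal, and in 9 of 9 below the ND+veh median of 3.11 CPM. Without ND+veh replicate 7, the highest ND+veh animal, the difference was -0.61 and missed the threshold (adjusted p = 0.0559). It also missed the threshold with the cholangiocyte marker score in the fit (-0.56, adjusted p = 0.149), where Abcc4 was called lower instead, and without the low-count filter (-0.68, adjusted p = 0.0856). With the immune marker score, Scd2 (-1.22, adjusted p = 0.00816), Golm1 (-0.93, adjusted p = 0.0187) and Abcc4 (-1.87, adjusted p = 0.0499) were called lower beside Afp.

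Of marker lists in this comparison, 0 of 8 macrophage and 0 of 8 endothelial genes were called, 5 of 7 stellate cell genes were lower, and Spp1 and the hepatocyte gene F9 were higher. Of all genes tested, 13.5% were called, 6.93% higher and 6.54% lower. Without ND+veh replicate 4, F9 was no longer called and Ttr, another hepatocyte gene, was called lower.

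The FPKM of Afp did not follow its counts closely. Each CPM of Afp corresponded to 0.0949 to 0.737 FPKM depending on the library, against 3.47 to 5.56 for Tff3 in libraries with at least 10 counts. On log2(FPKM + 1), limma gave -0.24 for Afp against ND+veh (adjusted p = 0.422). On log2(FPKM + 0.1), limma gave -0.38 for Afp (adjusted p = 0.516) and called Scd2 lower (-1.52, adjusted p = 0.0360). In the main edgeR fit of counts, Scd2 (-1.30, adjusted p = 0.122), Golm1 (-0.96, adjusted p = 0.187), H19 (-1.02, adjusted p = 0.497), Abcc4 (-2.11, adjusted p = 0.0810) and Tff3 (0.50, adjusted p = 0.669) did not pass. Without ND+veh 4, H19 stood at 0.19 and Abcc4 at -0.21. Of all genes tested, 3.37% had groups that did not overlap in this comparison, and none of the 7 did.

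Adult relatives of these genes were measured in the same cells. Scd1, the main desaturase of adult liver, had 1234 to 5759.6 FPKM in ND+veh, with a median of 4505, against 1.89 FPKM for Scd2. It moved opposite to Scd2 on the high-fat diet, with a log2 fold change of -1.65 (SE 0.305, adjusted p = 0.000809), and was also lower than ND+veh in HFD+eRapa (-1.90, SE 0.282, adjusted p = 6.37e-05). Between HFD+eRapa and HFD+veh it gave -0.25 (adjusted p = 0.530) where Scd2 fell. Of the 50-base words of Scd2, 2.66% occur in Scd1, and whether reads of Scd1 entered the Scd2 counts was not tested. Alb, encoding albumin, was not called in any comparison, with log2 fold changes of 0.12 (adjusted p = 0.734) in HFD+veh against ND+veh, -0.52 (adjusted p = 0.0734) in HFD+eRapa against HFD+veh and -0.41 (adjusted p = 0.239) in HFD+eRapa against ND+veh.

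**Figure D4:**
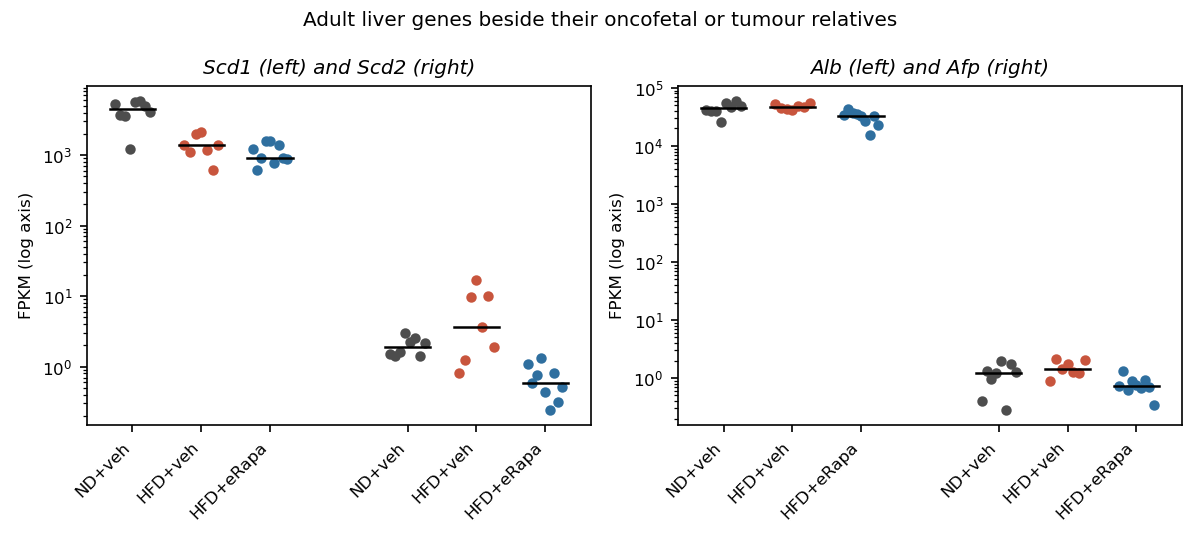
FPKM on a log axis for Scd1 and Scd2 (left panel) and for Alb and Afp (right panel), with 1 point per animal, groups on the horizontal axis and the group median as a line. Scd1 lies far above Scd2 in every group and is highest in ND+veh by its median, whereas Scd2 is highest in HFD+veh.

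Of 22 relatives in the tables (albumin family, glypicans, trefoil factors, Abcc transporters, desaturases and others), 15 were tested, and the high-fat diet with vehicle gave 2 higher and 2 lower calls against ND+veh. These 4 of 15 are near the 25.9% of all genes called. Abcc1, another efflux pump, was higher (2.22, SE 0.727, adjusted p = 0.0293), and Casc4, a relative of Golm1, was lower (-1.24, SE 0.306, adjusted p = 0.00660). In HFD+eRapa against HFD+veh, 1 was higher and 4 were lower (32% of all genes called), among them Abcc1 (-2.45), Abcc5 (-2.43) and Abcc12 (-2.32). Against ND+veh, 1 was higher and 3 lower (13.5% of all genes called), including Abcc12 (-3.16) and Abcc9 (-1.83). Abcc12, like Abcc4, had its highest value in ND+veh replicate 4, at 11.5 CPM against 1.54 CPM in the next ND+veh animal.

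Factors that control fetal and adult liver genes were listed too, and all 13 were tested. In HFD+veh against ND+veh, 4 were called lower and none higher, with a list median of -0.40. These 4 of 13 stand beside 9.86% of all genes tested that were called lower and 25.9% called in either direction. Foxa1 (-1.29, SE 0.257, adjusted p = 0.00158) and Foxa2 (-1.05, SE 0.242, adjusted p = 0.00450) fell most, and Zhx2, the repressor of Afp and H19, fell by 0.54 on the log2 scale (SE 0.160, adjusted p = 0.0185). Zhx2 had a median of 16.3 CPM in ND+veh, 12.1 CPM in HFD+veh and 15.5 CPM in HFD+eRapa. In HFD+eRapa against HFD+veh, 6 were called higher and none lower, with a list median of 0.42, beside 10.9% of all genes called higher and 32% in either direction. They included Foxa1 (1.28, adjusted p = 0.000995), Foxa3 (0.95, adjusted p = 0.00353), Foxa2 (0.64, adjusted p = 0.0412), Zhx2 (0.53, SE 0.156, adjusted p = 0.0125) and Zbtb20 (0.52, SE 0.170, adjusted p = 0.0219). Between HFD+eRapa and ND+veh no factor was called in edgeR, with 1 at an unadjusted p under 0.05, and DESeq2 called 1, Zbtb20. With the immune marker score in the fit, 2 of the 13 stayed called in the first of these comparisons (Foxa1 and Foxa2) and 1 in the second (Foxa1).

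Other oncofetal and imprinted genes did not move one way. Of 13 listed, 6 were tested, and all 6 were called in HFD+veh against ND+veh (25.9% of all genes), 4 higher and 2 lower. With the immune marker score in the fit, Peg10 and Peg3 stayed called, with the cholangiocyte score Peg10 alone, and without ND+veh replicate 4 Plagl1 missed the low-count filter while the other 5 stayed called. Plagl1, an imprinted zinc finger factor, was higher (2.47, SE 0.654, adjusted p = 0.0104), as was Mest (1.44, SE 0.427, adjusted p = 0.0185). Plagl1 had 4 to 75 counts in HFD+veh, 1 to 17 in ND+veh and 0 to 10 in HFD+eRapa. It passed the low-count filter mostly through HFD+veh, so its calls against that group are a description only. Peg10, an imprinted gene derived from a retrotransposon, was lower (-2.47, SE 0.423, adjusted p = 0.000429). In HFD+eRapa the 4 genes that had been higher were lower than in HFD+veh, among them Plagl1 (-3.12), Mest (-1.77) and Cdkn1c (-1.32). None of these 4 was called by edgeR with the immune marker score in the fit, where 3 had an unadjusted p under 0.05. Peg10 (-3.09, adjusted p = 1.29e-05) and Peg3 (-1.25, adjusted p = 0.00359) were below ND+veh. Igf2, which shares its imprinted locus with H19, missed the filter, with counts in 2 of 8, 2 of 7 and 1 of 9 libraries of ND+veh, HFD+veh and HFD+eRapa. Its highest count, 23, was again in ND+veh replicate 4.

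Among 16 other markers of liver tumours and progenitor-like hepatocytes, 13 were tested. On the high-fat diet with vehicle, 5 were called higher than on normal diet and none lower, beside 16% of all genes called higher and 25.9% in either direction. The median log2 fold change was 1.19 over the list and 0.05 over all genes tested. Without ND+veh replicate 4, 9 were called higher, where 1972 of all genes were called higher in place of 2218. Cd24a (3.31, SE 0.794, adjusted p = 0.00582), Cd44 (3.30, SE 0.930, adjusted p = 0.0147) and Tspan8 (3.14, SE 0.802, adjusted p = 0.00837), all membrane proteins, rose most. Leukocytes also carry Cd44, and biliary cells Cd24a and Tspan8. With rapamycin 9 were lower than in HFD+veh and none higher, beside 21.1% of all genes called lower and 32% in either direction. Spink1, a secreted trypsin inhibitor, had 0 to 3 counts in the HFD+eRapa libraries and 4 to 172 counts in HFD+veh, a gap of a single read (-5.23, SE 0.894, adjusted p = 0.000309). Akr1b7, an aldo-keto reductase, stood below HFD+veh (-2.83, SE 0.552, adjusted p = 0.000915) and below ND+veh (-3.44, SE 0.536, adjusted p = 9.86e-05). Against ND+veh, 2 of the 13 were called, Akr1b7 and Sqstm1, both lower, beside 13.5% of all genes called in either direction. With the immune marker score in the fit, no gene of this list was called by edgeR in the first comparison (6 at an unadjusted p under 0.05) and 2 were called in the second, Spink1 and Akr1b7. All 12 listed genes of dividing cells were tested, and neither edgeR nor DESeq2 called any in the 3 comparisons. At an unadjusted p under 0.05 edgeR had 2, 2 and 0 of them in HFD+veh against ND+veh, HFD+eRapa against HFD+veh and HFD+eRapa against ND+veh.

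The genes whose pattern across animals most resembled each member were sought among 10324 tested genes, by Pearson r of log2 CPM over 24 libraries after the group means were removed. These coefficients are given as descriptions, since the libraries share cell composition and depth. Scd2 lay closest to Arap3 (r = 0.946), Tagln2 (r = 0.944) and Man1c1 (r = 0.943), and Golm1 closest to Nedd9 (r = 0.942), Myo1f (r = 0.932) and App (r = 0.931). For Abcc4 they were Ly6d (r = 0.928), Anxa2 (r = 0.919) and Uap1l1 (r = 0.916), and without ND+veh 4 their ranks were 214, 37 and 56. Nedd9, Myo1f and App then ranked 19, 6 and 34 for Golm1, and those of Scd2 stayed within the first 3. For H19 they were Csnk1e (r = 0.828), Pcolce (r = 0.823) and Anxa2 (r = 0.813). Tff3 (Rarres1, r = 0.715, Selenbp2, r = 0.691, and Ugt2b37, r = 0.681) and Afp (Tmem9, r = 0.708, Nfyb, r = 0.665, and Slc16a12, r = 0.659) had looser neighbours.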

How the data were processed

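Poly(A) RNA was sequenced from perfused hepatocytes of 24 C57BL/6J mice, grouped by their labels. The authors aligned reads with STAR to mm10, filtered them with SAMtools 1.1.0 and made the deposited raw counts per gene with HTSeq 0.11.2. Whether counting used strand is not stated. The deposited FPKM values were computed by the authors with Cufflinks.

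Counts were tested with edgeR 4.0.16 in R 4.3.3 (filterByExpr, TMM, robust glmQLFit and glmQLFTest, 1 fit of 24 libraries in 3 groups, no covariates), with Benjamini-Hochberg adjustment over the 13847 genes kept. Calls required an adjusted p under 0.05. SE is the absolute log2 fold change over the square root of F. Log2 CPM used a prior count of 2. In the text CPM is scaled by TMM factors. Total counts were 17.7 to 25.9 M per library. Within groups, no pair of libraries had a chi-square per degree of freedom under 11.3, so none was a copy.

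The 7 genes and all lists were chosen with earlier results of these data known, so no p was adjusted over a list and no list was tested. Named were the 7 genes, Zhx2, Zbtb20, Alb, Igf2, Scd1, up to 3 called genes per list and comparison with the largest absolute log2 fold change, and the 3 nearest genes to each tested member. Naa35, other called or recurrent genes of a list and marker genes were named after their values were seen. Marker scores are mean z-scores of log2 CPM over tested markers. Alternatives were DESeq2 1.42.0, limma 3.58.1 on log2(FPKM + 1) and log2(FPKM + 0.1) with a mean FPKM of at least 0.1, other scalings and filters, fits of only the groups compared, a replicate block, marker scores as covariates and the removal of each library. The fits were tested on simulated counts. The result of 1 marker gene is not reported here. Gene positions and overlaps came from Gencode M21, in which 55154 of 55421 identifiers were found.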

Additional observations from a re-analysis of the deposited data

Results flagged for a closer look

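Abcc4 in ND+veh replicate 4, at 5.83 on the log2 CPM scale, stood apart from the other 7 ND+veh animals. Its gap to the next animal (2.36) was 0.53 of the range of the group, whose lowest animal was at -0.72, just past the critical value of 0.526 for 8 samples. Of 21 combinations of gene and group examined, this was the only such value, and chance alone gives about 1.05. The same library held the highest level of Abcc12 and of Abcc4 itself among all 24 libraries. With a small constant added to each CPM, these were 3.68 and 2.75 times the next library. For Abcc4 the values were 57.0 CPM here and 20.4 CPM in HFD+veh replicate 4. ND+veh replicate 4 was otherwise marked by its cell markers. It had the lowest summed hepatocyte markers of ND+veh, 52416 CPM, and the highest summed cholangiocyte markers of ND+veh, 35.2 CPM against 23.8 CPM in the next animal, while its 269 CPM of macrophage markers lay inside the range of its group. What set this library apart was not tested.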

How the results depend on the processing

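Scd2, H19, Golm1 and Afp kept their direction under every alternative in the comparisons in which they were called. In HFD+veh against ND+veh, 3584 genes were called, against 2333 with only these groups, 2134 with the cholangiocyte score, 1200 with the immune score, 2200 by limma with FPKM + 0.1, and 2106 to 4479 on leaving out 1 library (2106 without HFD+veh 6). Of the 7 genes, 3 were called, against 1 with at least 10 counts in every library (4 of the 6 genes then go untested), 0 with either marker score, 1 by limma with FPKM + 0.1, and 1 to 4 on leaving out 1 library (1 without HFD+veh 4). Abcc4 turned positive with a replicate block (0.73), by limma with FPKM + 1 (0.24) and FPKM + 0.1 (0.66), and ran from -0.67 to 1.64 without 1 library. Tff3 turned to -0.33 with the cholangiocyte score.

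For HFD+eRapa against HFD+veh, 4432 genes were called, against 2809 with at least 10 counts in every library, 2532 with a replicate block, 984 with the immune score, and 3269 to 5061 without 1 library. Of the 7 genes, 4 were called, against 2 with at least 10 counts in every library, 2 with the immune score, and 4 to 5 without 1 library. Tff3 turned negative with total counts (-0.13), a replicate block (-0.19), the immune score (-0.13), and limma with FPKM + 1 (-0.12) and FPKM + 0.1 (-0.18), and ran from -0.25 to 0.30 without 1 library. Abcc4 was 0.088 with the immune score.

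For HFD+eRapa against ND+veh, 1865 genes were called, and 1462 to 2232 without 1 library. Of the 7 genes, 1 was called, against 0 without a filter, 0 with a replicate block, 0 by limma with FPKM + 1, 2 with only these groups, 2 by DESeq2, 4 with the immune score, and 0 to 1 without 1 library (0 without ND+veh 7). Tff3 was -0.12 with the cholangiocyte score, and H19 ran from -1.77 to 0.19 without 1 library. Where no value shows the reason, the cause was not tested.

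Replicate numbers are shared between groups but belong to different animals, and the main fit did not pair them. The mean correlation of same-numbered deviations was 0.32, -0.24 and -0.20, with 5 of 7, 2 of 7 and 2 of 8 pairs over 0.1. These values cannot settle whether same-numbered animals were handled together, which was not tested. With a replicate block 2461, 2532 and 1575 genes were called in the 3 comparisons. Scaling by total counts moved the median log2 fold change of all genes to -0.13 and -0.12 in the rapamycin comparisons, where 968 genes were then higher and 3205 lower (1507 and 2925 with TMM) against HFD+veh, and 639 higher and 1038 lower (959 and 906 with TMM) against ND+veh. Genes with few counts, Gpc3 and Igf2 above all, are limited by depth.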
